A study of Mus musculus with 20 samples.

Results

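Among splenic follicular T cells, 664 clones had cells in 2 of the clusters named by the authors, follicular regulatory (TFR) cells and activated follicular helper (TFH) cells, so that the same T cell receptor could be read on both sides of the border between them. Such cells are called sisters here. RNA and receptor tables were joined by library and cell barcode, a clonotype was a listed pair of CDR3 sequences in 1 mouse, and a sister clonotype held at least 1 TFR and at least 1 activated TFH cell. The 664 sister clonotypes were drawn from 9796 clonotypes, 2522 of them with 2 or more cells. They held 2611 TFR sisters and 3233 activated sisters, 5844 cells out of 21405 with RNA and receptor and out of 28192 with RNA. The expression values did not choose the clones directly, but the cluster names that did were made by the authors from the same cells' expression.

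The mice were C57BL/6 bone marrow chimeras, 5 per condition. WT mice 14, 23 and 36 and 564Igi mice 17 and 24 were labelled male, and the others female. WT chimeras were irradiated recipients of congenic WT marrow and received the antigen NP-OVA in alum 6 weeks later, whereas 564Igi chimeras received congenic marrow mixed with 564Igi marrow, the source of an autoreactive B cell clone, and no immunization is given for them in the labels. Every chimera was killed 10 weeks after irradiation according to the labels, while the methods of the study also describe a boost of WT chimeras. Immunization and condition cannot be told apart, and irradiated hosts keep radioresistant cells. The authors sorted on the CD45 allele as well as on CD4, CXCR5 and PD1, and whether host T cells remained was not tested. A 10x gene expression library and a receptor library were available for each mouse, with 3424280 to 15241983 UMIs over 1121 to 4030 cells of RNA.

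TFH cells help germinal centre B cells through CD40 ligand and the cytokine IL-21, while TFR cells carry the transcription factor FOXP3, enter the follicle through CXCR5 and restrain the same reaction. TFR cells are known to arise from regulatory T cells made in the thymus, and also from conventional T cells that gain FOXP3 in the periphery. The CDR3 is the part of each receptor chain that is joined anew in every developing thymocyte, and a shared α and β pair in a mouse is therefore used as a mark of descent from a common cell.

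The CDR3 coding sequences of 3 sister clonotypes are given because they are the largest of their kind in these data, and because the same bases were read in every cell counted on each side. The first and last codons are in capitals. For the first clone the alpha chain alone is given. The first clone came from 564Igi mouse 17 and had 139 TFR and 38 activated cells, which made it the largest with most cells TFR. The second came from WT mouse 23 and had 12 TFR and 117 activated cells, the largest with most cells activated. The third came from 564Igi mouse 24 and had 9 TFR and 26 activated cells, the largest in which TFR cells made up between 25% and 75%.
Mouse 17, alpha, TRAV4-3 with TRAJ7: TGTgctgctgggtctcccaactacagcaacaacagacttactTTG
Mouse 23, alpha, TRAV8-1 with TRAJ31: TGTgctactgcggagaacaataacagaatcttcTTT
Mouse 23, beta, TRBV10 with TRBJ1-3: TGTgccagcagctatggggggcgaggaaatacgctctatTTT
Mouse 24, alpha, TRAV4D-4 with TRAJ22: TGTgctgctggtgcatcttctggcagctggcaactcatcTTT
Mouse 24, beta, TRBV13-1 with TRBJ2-7: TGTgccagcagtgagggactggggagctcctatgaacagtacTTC

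These 3 clones also differed in Foxp3, the defining gene of regulatory T cells. In the clone of mouse 17, Foxp3 was found in 95 of 139 TFR sisters and in 21 of 38 activated sisters. In the clone of mouse 23 it was found in 0 of 12 TFR sisters, which allows a share of up to 25%, and in 4 of 117 activated sisters. In the clone of mouse 24 it was found in 0 of 35 cells of the 2 clusters, which allows a share of up to 8.57%. A clone read as shared between TFR and activated cells thus had Foxp3 on both sides in the first case and on neither side, within this depth, in the third. These limits rest on 3 counts and cover counting error only.

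Receptor identity between sisters was checked at the level of bases, since the clonotypes were defined by residues. Of 556 sister clonotypes with cells free of an extra chain on both sides, 554 (99.6%) shared at least 1 set of bases between TFR and activated sisters, and 14 of the 556 held more than 1 set of bases. The other 2 clonotypes shared none and each differed by 1 base in 1 chain, and their sequences are given with that base in capitals. The clone of WT mouse 23 had 1 TFR cell and 2 activated cells, and that of WT mouse 36 had 3 TFR cells and 1 activated cell.
Mouse 23, alpha, TFR: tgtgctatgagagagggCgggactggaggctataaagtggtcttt
Mouse 23, alpha, activated: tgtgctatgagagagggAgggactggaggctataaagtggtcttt
Mouse 36, beta, TFR: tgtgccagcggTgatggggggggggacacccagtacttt
Mouse 36, beta, activated: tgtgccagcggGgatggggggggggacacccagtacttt

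A pair of 1 α and 1 β CDR3 was listed for 625 sister clonotypes and 2 CDR3 of 1 chain for the other 39, which thus had no listed pair. The receptor table listed exactly 2 CDR3 per cell with its columns cut separately, and 3662 of the joined cells (17.1%) had signs of a further chain. The share with such signs was 13.98% of TFR sisters (5.04% to 34.3% by mouse) and 13.5% of activated sisters (4.76% to 25.9%). A cell with 2 chains of a kind may hold 2 cells or 1, which was not tested, and leaving these cells out did not lower the counts of genes given further on. No cell name shared by libraries carried the same receptor in them, although 491 names recurred. Among 663 distinct sister CDR3 pairs, 5 were found in more than 1 mouse.

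Sister clonotypes were larger than the clones seen in 1 of the 2 clusters alone. They had 8.80 cells on average and a median of 4, with 182 of them made of 1 cell on each side and 160 with at least 2 cells on each side. Clones of 2 or more cells with TFR cells and no activated cell, called unshared TFR clones here, numbered 767 with a mean of 3.70 cells, and unshared activated clones numbered 786 with a mean of 3.68 cells. Larger clones have more chances to be seen on both sides, so this comparison was given no test. A clone also counts as unshared when its other cells were not sampled. Most large sister clones were lopsided, since among 150 with 10 or more cells 17 had a TFR share between 25% and 75% and 74 had over 90% in 1 cluster. A cell of the Sostdc1 cluster was present in 32.2% of sister clonotypes, in 6.52% of unshared TFR clones and in 32.8% of unshared activated clones.

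CDR3 loops of sister clones differed little in length from those of unshared clones. The β chain CDR3 had 14.1 ± 0.202 residues (SD, n = 10 mice) in sister and 13.9 ± 0.127 in unshared clones, a difference of 0.157 residues that was above 0 in 8 of 10 mice (exact sign-flip permutation, two-sided p = 0.0371, adjusted p = 0.0742 over 2 chains). The α chain CDR3 differed by 0.0713 residues (exact sign-flip permutation p = 0.383). No V gene passed adjustment, and the lowest p belonged to TRAV7-4 (exact permutation p = 0.0117, adjusted p = 0.352).

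Sister clones made up a like share of the repertoire in the 2 conditions. Per 100 clonotypes of 2 or more cells, WT mice 11, 12, 14, 23 and 36 had 24.6, 25.9, 22.6, 27.2 and 30.5 sister clonotypes. 564Igi mice 13, 17, 21, 24 and 34 had 27.6, 28.2, 26, 23.7 and 24.4, so that the conditions overlapped. The means were 26.2 ± 2.95 and 25.99 ± 1.94 (SD, n = 5 mice each, exact permutation p = 0.921). Sister clones held 28.1% ± 7.06 of TFR cells in WT and 28.9% ± 9.21 in 564Igi chimeras (exact permutation p = 0.857), and 35.5% ± 12.8 and 33.6% ± 7.77 of activated cells (exact permutation p = 0.825). The libraries of mice 34 and 36 joined RNA to receptor in 56.5% and 48.0% of cells, against 72.6% to 89.3% in the others.

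The TFR share of a sister clonotype, averaged with equal weight for every clone, was lower in 564Igi than in WT chimeras. This mean TFR share of a sister clonotype was 51.1%, 56.7%, 49.2%, 51.1% and 46.9% in WT mice 11, 12, 14, 23 and 36. It was 44.7%, 42.1%, 46.4%, 46.8% and 44.0% in 564Igi mice 13, 17, 21, 24 and 34, all below the lowest WT mouse. The means were 51.0% ± 3.62 and 44.8% ± 1.91, a difference of -6.21 percentage points (exact permutation, two-sided p = 0.00794, the smallest that permuting the mice can give, adjusted p = 0.0317 over 4 values). Among all TFR and activated cells with a receptor the TFR share was 50.6% ± 7.66 in WT and 46.4% ± 6.51 in 564Igi chimeras (exact permutation p = 0.397), and the share of a sister clonotype minus this share did not pass between conditions (exact permutation p = 0.587). Over all sister cells of a mouse, with equal weight for every cell, it was 45.7% ± 7.66 in WT and 42.5% ± 4.24 in 564Igi chimeras, with overlapping mice (exact permutation p = 0.437). With at least 2 cells on each side the difference was -8.71 points and did not pass (exact permutation p = 0.127).

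**Figure D1:**
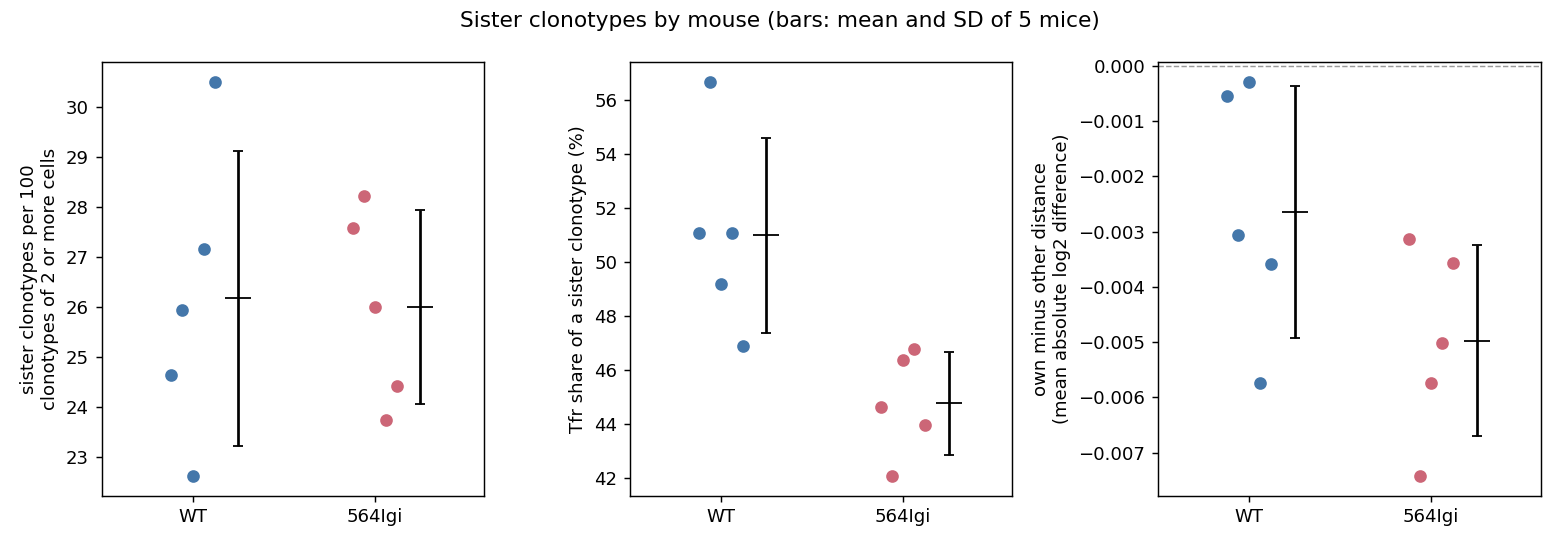
Values per mouse for WT and 564Igi chimeras, namely sister clonotypes per 100 clonotypes of 2 or more cells, the mean TFR share of a sister clonotype in percent, and the distance between sisters minus the distance between cells of different clones as mean absolute log2 difference; points are mice and bars give the mean and SD of 5 mice. The TFR share of all 5 564Igi mice, at most 46.8%, lies below all 5 WT mice, while the numbers of sister clonotypes overlap and all 10 distances lie below 0.

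Expression was compared between the sisters of each clone as mean log2(corrected count + 1), TFR minus activated, averaged over the clonotypes of a mouse and then over 10 mice, for 9927 genes. Because the clusters were drawn from these genes, this difference is a description and no test is read from it. At an adjusted limma p under 0.01 and an absolute difference above 0.2, 86 genes stood out (0.866% of genes tested), 48 higher (0.484%) and 38 lower (0.383%) in TFR sisters, and the median over all genes was 0.0026. Of 22 tested genes on the memory and homing list, 9 were among the 38 lower in TFR sisters. S100a6, a calcium-binding protein of activated and memory T cells, had a level of 1.24 to 1.99 in TFR sisters (median mouse 1.58) and 1.66 to 2.47 in activated sisters (median 2.22), a difference of -0.65 ± 0.26 (SD, n = 10 mice). The ranges overlapped, but S100a6 was lower in the TFR sisters of each of the 10 mice. Klf2, a transcription factor that keeps T cells out of the follicle and drives S1pr1, had a level of 0.0343 to 0.232 in TFR sisters (median 0.119) and 0.309 to 0.933 in activated sisters (median 0.536). The mice did not overlap between sides for Klf2, and its difference was -0.45. S1pr1, the receptor for egress from lymphoid tissue, differed by -0.28, and Lgals1, which encodes galectin-1, by -0.57.

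Among the 48 genes higher in TFR sisters, 7 were on the regulatory identity list and 7 on the receptor signal list. Tnfrsf4, which encodes the costimulatory receptor OX40 and is high on regulatory T cells, had a level of 1.52 to 1.92 in TFR sisters (median 1.70) and 0.838 to 1.12 in activated sisters (median 0.981), a difference of 0.73 ± 0.11. Nfkbia, the inhibitor of NF-κB that NF-κB itself induces, differed by 0.70, and Junb, a subunit of AP-1, by 0.58. Srgn, a proteoglycan of secretory granules, differed by 0.46, and Pim1, a kinase induced by cytokines, by 0.36. Each was higher in TFR sisters in 10 of 10 mice. Foxp3 itself differed by 0.21 ± 0.10 and Ikzf2, which encodes the regulatory T cell factor Helios, by 0.13 ± 0.09.

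**Figure D2:**
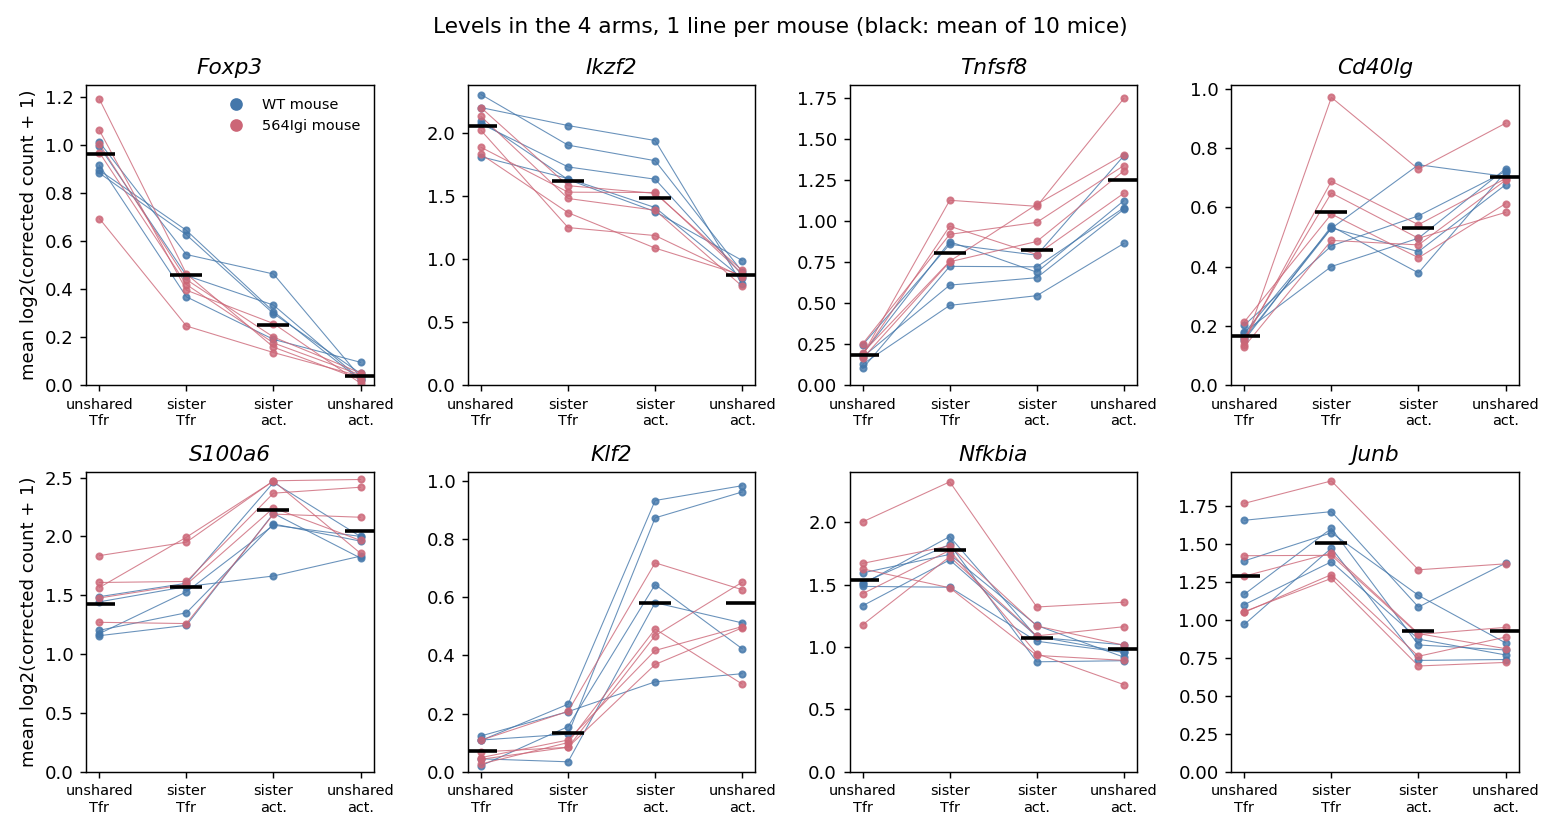
Levels of 8 genes as mean log2(corrected count + 1), averaged over clonotypes, in unshared TFR cells, TFR sisters, activated sisters and unshared activated cells, with 1 line per mouse and black bars for the mean of 10 mice. Ikzf2, Tnfsf8 and Cd40lg step between unshared cells and sisters and lie close together in the 2 kinds of sister. Foxp3 steps between unshared cells and sisters and also differs by 0.21 between the 2 kinds of sister. S100a6, Klf2, Nfkbia and Junb step between TFR and activated sisters.

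Among the lineage genes of the 2 clusters, Ikzf2, Foxp3, Tnfsf8 and Cd40lg set sisters apart much less than they set unshared clones apart. Clones were sorted into sister and unshared by cluster names that rest on the same genes. The p values of the gap between the 2 differences do not account for that sorting. Ikzf2 (GRCm38 chromosome 1, 69531214 to 69687245) had a level of 1.25 to 2.06 in TFR sisters (median 1.603) and 1.08 to 1.94 in activated sisters (median 1.46), which overlapped. In unshared TFR cells it was 1.81 to 2.30 (median 2.08) and in unshared activated cells 0.782 to 0.986 (median 0.871), which did not. The Ikzf2 difference was thus 0.13 between sisters and 1.18 between unshared clones, and the gap of -1.05 ± 0.06 (SE) was below 0 in 10 of 10 mice (limma adjusted p = 7.33e-17). Tnfsf8, the gene of CD30 ligand (chromosome 4, 63831308 to 63861347), marked activated cells. Its level was 0.485 to 1.13 in TFR sisters (median 0.806) and 0.544 to 1.10 in activated sisters (median 0.793), against 0.101 to 0.251 in unshared TFR cells (median 0.184) and 0.862 to 1.75 in unshared activated cells (median 1.24). The Tnfsf8 difference was -0.02 between sisters and -1.07 between unshared clones (gap 1.05 ± 0.05 SE, above 0 in 10 of 10 mice, limma adjusted p = 2.04e-19).

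Across all genes, the sister difference departed from the unshared difference for 166 genes (1.67%), 82 with a higher (0.826%) and 84 with a lower (0.846%) sister difference, and for 130 of the 166 the sister difference was the nearer to 0. The largest gap among the genes tested was that of Ms4a4b, a membrane protein of T cells, with a difference of -0.35 between sisters and -1.42 between unshared clones (gap 1.07 ± 0.06 SE, limma adjusted p = 2.13e-18). Foxp3 (chromosome X, 7573644 to 7595245) had a gap of -0.71 ± 0.04 (SE, limma adjusted p = 2.04e-19) and Tigit, an inhibitory receptor, of -0.70 ± 0.06 (limma adjusted p = 1.65e-12). Cd40lg, the helper ligand for B cells (chromosome X, 57212143 to 57224042), differed by 0.05 between sisters and by -0.54 between unshared clones (gap 0.59 ± 0.04 SE, limma adjusted p = 3.00e-15). Membership in the sister and in the unshared clones used the cluster names of every cell of a clone, and these names rest on the same genes. A clone of 1 kind with a cell named across the border and a clone of 2 kinds cannot be told apart from the names. How much of the gap follows from that was not tested, and the p values of the gaps do not account for it. When every cell of a mouse was given equal weight in place of every clonotype, 32 genes passed, 8 higher and 24 lower. Large clones then count for more, and the difference between sisters became 0.73 for Ikzf2, -0.67 for Tnfsf8 and -0.34 for Cd40lg, while the gaps of -0.47 for Ikzf2 and 0.45 for Tnfsf8 still passed.

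**Figure D3:**
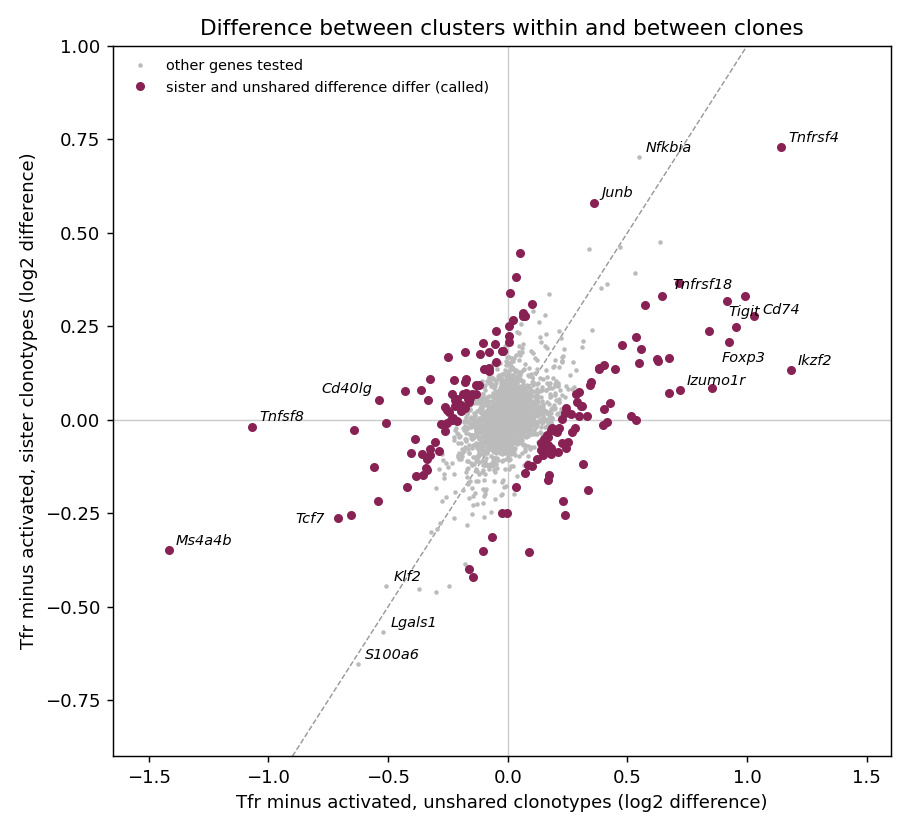
Each of 9927 genes is a point at its TFR minus activated difference between unshared clones (horizontal, log2) and between sisters (vertical, log2), means of 10 mice, with the dashed line of equal differences. The 166 genes whose 2 differences departed are purple. Ikzf2, Foxp3, Tigit and Cd74 on the right and Ms4a4b and Tnfsf8 on the left lie nearer the horizontal axis than the dashed line, while S100a6, Klf2 and Lgals1 lie near the dashed line.

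Some genes separated sisters by about as much as they separated unshared clones, among them S100a6, by which the authors annotated the activated cluster. S100a6 differed by -0.65 between sisters and by -0.63 between unshared clones (gap -0.03 ± 0.07 SE, limma adjusted p = 0.866). Klf2 differed by -0.45 and -0.51 (gap 0.06 ± 0.03 SE, limma adjusted p = 0.218), S1pr1 by -0.28 in each, and Srgn by 0.46 and 0.47. On the memory and homing list the gap passed for 4 genes with a higher and 3 with a lower sister difference, among them the integrin genes Itgb1 (0.40) and Itgb7 (-0.45).

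Each side of the sister clones was then compared with unshared cells of the same cluster. The clones were again sorted into sister and unshared by cluster names that rest on the same genes. How much of the differences in this comparison follows from that sorting was not tested, and the p values do not account for it. TFR sisters differed from unshared TFR cells in 69 genes (0.695%), 31 higher (0.312%) and 38 lower (0.383%). Activated sisters differed from unshared activated cells in 16 genes (0.161%), 11 higher (0.111%) and 5 lower (0.0504%). With the log2 taken after averaging, the splits were 20 higher and 71 lower, and 7 higher and 16 lower, so that the balance of directions depended on the scale. With equal weight for every cell, 14 and 5 genes passed. All 14 genes that passed on both sides moved in opposite directions, with Foxp3, Ikzf2, Tigit, Capg, Cd74, Ly6e, Gimap7, Ass1, H2az1, Itgb7 and Ifi27l2a lower in TFR sisters and higher in activated sisters, and Tnfsf8, Ms4a4b and Gpm6b the reverse. Ifi27l2a alone among these turned direction with equal weight for every cell, to -0.024 in activated sisters. Of the 14 genes, only Ikzf2 and Ms4a4b still passed in activated sisters under that weight.

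With equal weight for every clonotype, some regulatory identity genes were lower in TFR sisters than in unshared TFR cells. Of 23 tested genes on that list, 10 were lower and none higher, with a median of -0.14 against 0.0053 over all genes. Foxp3 had a level of 0.246 to 0.644 in TFR sisters (median 0.447) and 0.693 to 1.19 in unshared TFR cells (median 0.981), without overlap, a difference of -0.50 ± 0.04 (SE, limma adjusted p = 2.18e-12). Izumo1r, the folate receptor 4 of regulatory and anergic T cells, was lower by -0.51 ± 0.05 (SE, limma adjusted p = 1.50e-08), Tnfrsf9, the gene of the costimulatory receptor 4-1BB, by -0.49 and Tnfrsf18, the gene of GITR, by -0.41. Il2ra, the high-affinity chain of the IL-2 receptor, had a difference of -0.03 (limma adjusted p = 0.33). As a description, TFR sisters of clones with most cells TFR, 1959 of 2611, lay near unshared TFR cells in Foxp3, Izumo1r and Tnfrsf18. Foxp3 had a level of 0.86 against 0.96, Izumo1r 2.69 against 2.75 and Tnfrsf18 1.48 against 1.505. In TFR sisters of clones with equal numbers the levels were 0.45, 2.21 and 0.96, and with most cells activated 0.19, 1.895 and 0.904. Tnfrsf9 was not split in this way. In activated sisters 4 of the 23 genes were higher and none lower, namely Ikzf2, Tigit, Foxp3 and Capg. With equal weight for every cell Ikzf2 passed in activated sisters, and Tigit, Foxp3 and Capg did not. Without the filter on genes found in few cells, none of the 4 passed. Ikzf2 was higher by 0.61 ± 0.05 (SE, limma adjusted p = 2.11e-10) and in 10 of 10 mice.

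Some helper genes were higher in TFR sisters. Of 26 tested genes of the follicular helper programme, 6 were higher and 1 was lower than in unshared TFR cells, and the other 19 did not pass, with a median of 0.08 against 0.0053 over all genes. Tnfsf8 was higher by 0.63 ± 0.03 (SE, limma adjusted p = 1.45e-15) and Cd40lg by 0.42 ± 0.03 (SE, limma adjusted p = 3.47e-11). Il21, the helper cytokine, had a level of 0.132 to 0.380 in TFR sisters (median 0.238) and 0.00855 to 0.0833 in unshared TFR cells (median 0.0361), without overlap, a difference of 0.22 (limma adjusted p = 1.10e-10). Tcf7, a transcription factor of the helper lineage, was higher by 0.27, Slamf6 by 0.25 and Cd200 by 0.28. As a description, TFR sisters of clones with most cells TFR lay near unshared TFR cells in 4 of these genes. Tnfsf8 had 0.22 against 0.18, Cd40lg 0.20 against 0.17, Il21 0.051 against 0.037 and Tcf7 0.60 against 0.61. In TFR sisters of clones with most cells activated the levels were 1.37, 0.83, 0.41 and 1.08, and with equal numbers 0.69, 0.65, 0.25 and 0.87. With equal weight for every cell, Il21 was higher by 0.10 and Cd40lg by 0.20, and neither passed. Bcl6, the master factor of follicular T cells, was found in 10.0% of TFR sisters and 9.66% of unshared TFR cells and its level differed by 0.02 (adjusted p = 0.54). Pdcd1, the gene of the sorted marker PD1, differed by 0.01 (adjusted p = 0.95).

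Some genes that T cell receptor signals induce were higher in TFR sisters than in unshared TFR cells. Of 18 tested genes on the receptor signal list, 8 were higher and none lower, and in activated sisters none of the 18 passed. As a description, Junb had a level of 1.21 in TFR sisters of clones with most cells TFR, and 1.29 in unshared TFR cells. It was 1.57 in TFR sisters of clones with equal numbers and 1.71 in those of clones with most cells activated. Nfkbia had 1.53, 1.65 and 2.07 in the same order of clones, and 1.53 in unshared TFR cells. Egr1 and Egr2 were not split in this way. Nfkbid, which is not on that list and encodes an atypical inhibitor of NF-κB (chromosome 7, 30421732 to 30428746), had a level of 0.370 to 0.994 in TFR sisters (median 0.557). It was 0.106 to 0.399 in unshared TFR cells (median 0.221), 0.0605 to 0.265 in activated sisters (median 0.149) and 0.111 to 0.298 in unshared activated cells (median 0.173). TFR sisters exceeded unshared TFR cells in all 10 mice, by 0.36 ± 0.03 (SE, limma adjusted p = 2.79e-09). Egr2, an early growth response factor of T cell receptor signals (chromosome 10, 67535475 to 67542188), had a level of 0.268 to 0.784 (median 0.481) against 0.188 to 0.321 (median 0.222) in the same 2 kinds of TFR cell, a difference of 0.29 ± 0.03 (SE, limma adjusted p = 2.20e-08). Egr1 and the cytokine gene Tnf, also not on the list, were each higher by 0.29, Nr4a1 by 0.21 and Junb by 0.22.

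Some of these genes separated sisters by more than they separated unshared clones, and the gap passed for 7 of the 18 on the list, each with a higher sister difference. Egr2 differed by 0.38 between TFR and activated sisters and by 0.03 between unshared TFR and activated cells (gap 0.35 ± 0.03 SE, limma adjusted p = 7.06e-11), and Egr1 by 0.34 and 0.01. Junb differed by 0.58 between sisters and also by 0.36 between unshared clones, and Nfkbia by 0.70 and 0.55, with a gap that did not pass for Nfkbia (0.16, limma adjusted p = 0.124). The values of Egr2 and others depended on weighting. With equal weight for every cell the differences between TFR sisters and unshared TFR cells were 0.09 for Egr2, 0.13 for Nfkbid, 0.08 for Egr1 and 0.11 for Tnf, and none of these passed. The gap of Egr2 was then 0.13 and that of Egr1 0.11, and neither passed. Over cells, Egr2 was found in 19.3% ± 3.4 of TFR sisters and 16.1% ± 2.9 of unshared TFR cells (SD, n = 10 mice). Heat shock chaperones were also higher in TFR than in activated sisters for 4 of 8 tested genes, Hspe1 by 0.25 and Hspd1 by 0.21, and none of the 8 passed the limits on p and size between TFR sisters and unshared TFR cells.

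Foxp3 was found in 45.5% ± 5.1 of TFR sisters (36.8% to 53.0% by mouse) and in 60.8% ± 6.3 of unshared TFR cells (48.0% to 69.8%). The difference of -15.3 percentage points was below 0 in 10 of 10 mice (exact sign-flip permutation p = 0.00195, the smallest that flipping signs can give). Foxp3 was found in 7.59% ± 2.5 of activated sisters and in 2.58% ± 1.9 of unshared activated cells, a difference of 5.01 points that was above 0 in 10 of 10 mice (exact sign-flip permutation p = 0.00195). Clones were sorted into sister and unshared by cluster names that rest on genes such as Foxp3. How much of these 2 differences follows from that was not tested. The share in unshared activated cells, 0.608% to 7.11% by mouse, is given as the low level of this measure, and how much of it was free RNA was not tested. The median UMIs per cell averaged 3493 in TFR sisters, 3415 in unshared TFR cells, 3574 in activated sisters and 3574 in unshared activated cells, and none of the sister differences in UMIs passed (exact permutation p = 0.271 and p = 0.996).

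The share of cells with Foxp3 followed the cluster that held most cells of the clone. This is a description, since the clones were sorted by their cluster names. In 209 clones with most cells TFR, Foxp3 was found in 58.3% ± 7.0 of TFR sisters and in 34.2% ± 6.9 of activated sisters (SD, n = 10 mice). In 198 clones with equal numbers it was found in 29.97% ± 14.8 and 18.8% ± 12.3. In 257 clones with most cells activated it was found in 10.2% ± 6.0 of TFR sisters and 2.73% ± 1.5 of activated sisters. The share was at most 22.2% in any mouse for TFR sisters of mostly activated clones and at least 23.1% for activated sisters of mostly TFR clones.

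**Figure D4:**
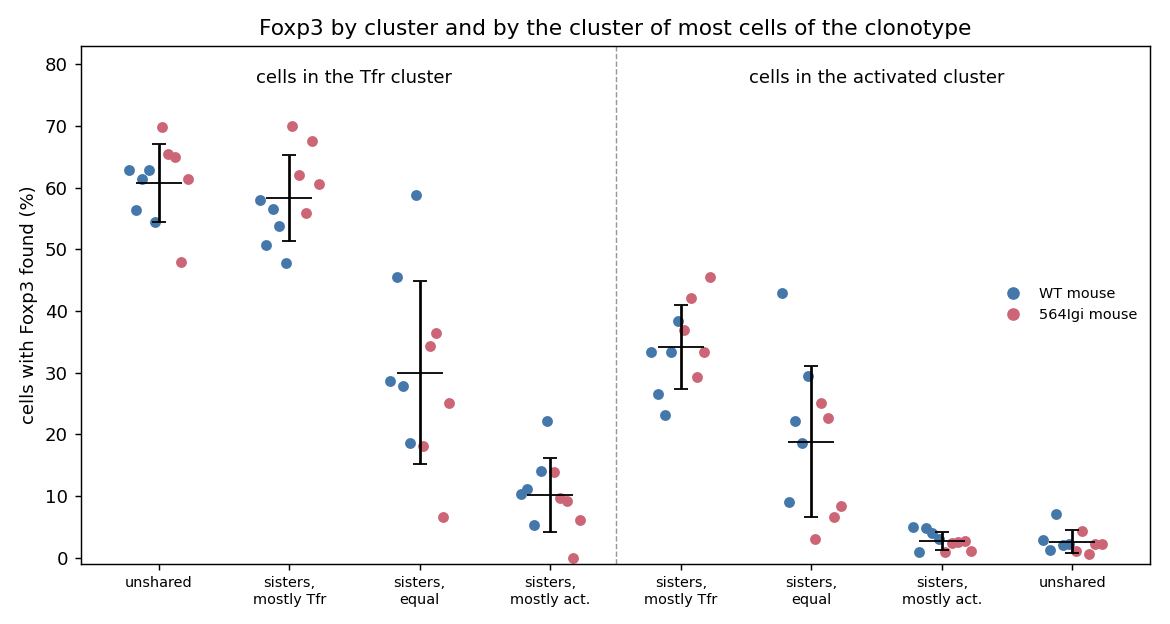
Percent of cells with Foxp3 found, by the cluster of the cell (left and right of the dashed line) and by the cluster that holds most cells of its clone, with a point per mouse and bars for the mean and SD of 10 mice. On each side the percent is lower in clones with most cells activated, from 58.3% to 10.2% in TFR sisters and from 34.2% to 2.73% in activated sisters.

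Levels of Tnfsf8, Ikzf2 and Il21 lay apart by the majority of the clone in the same way, and those of Klf2 by the cluster of the cell, again as a description. Tnfsf8 had a level of 0.22 in TFR sisters and 0.34 in activated sisters of mostly TFR clones, and of 1.37 and 1.23 in those of mostly activated clones. Ikzf2 had 2.08 and 2.04 in mostly TFR clones and 1.35 and 1.06 in mostly activated clones. Il21 was found in 3.32% and 10.6% of TFR and activated sisters of mostly TFR clones, and in 32.7% and 27.2% of those of mostly activated clones. Klf2 had a level of 0.09 in TFR sisters and 0.80 in activated sisters of mostly TFR clones, and of 0.16 and 0.49 in mostly activated clones. Cd40lg had 0.20 and 0.31 in TFR and activated sisters of mostly TFR clones, and 0.83 and 0.70 in mostly activated clones. Tnfrsf18 had 1.48 and 1.07, and 0.90 and 0.60. Not every lineage gene lay as far apart by majority. Il2ra had a level of 0.11 in the TFR sisters of mostly TFR and of mostly activated clones, but 0.068 and 0.0099 in their activated sisters. Icos, a costimulatory receptor of follicular T cells, had 1.35 and 1.16 in TFR sisters, and 1.17 and 0.99 in activated sisters.

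Large clones could be read singly. Among 150 sister clonotypes with 10 or more cells, Foxp3 was found in under 10% of cells in 76, in 10% to 30% in 8 and in over 30% in 66. The 70 with most cells TFR had Foxp3 in a median of 54.8% of cells, and 66 of them in over 30%. The 79 with most cells activated had a median of 1.205% and at most 23.5%. Few large sister clones therefore lay between the 2 levels. This Foxp3 share pools the cells of both clusters, and 17 of the 150 clones had a TFR share between 25% and 75%. How much of the scarcity between the 2 levels follows from that make-up was not tested.

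**Figure D5:**
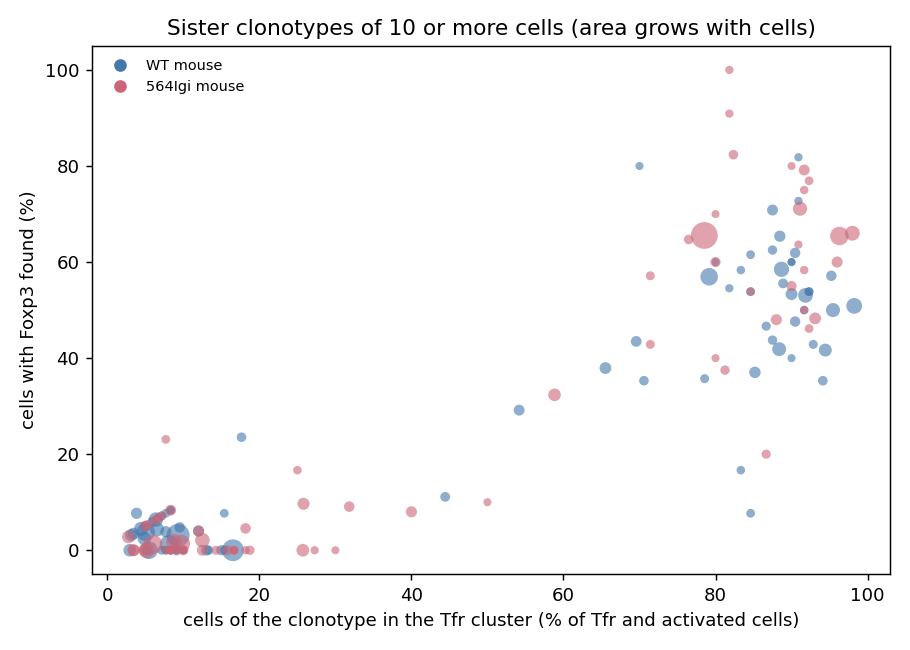
Each of 150 sister clonotypes with 10 or more cells is placed by the percent of its cells in the TFR cluster (horizontal) and the percent with Foxp3 found (vertical), with area growing with the number of cells, WT in blue and 564Igi in red. Clones with most cells activated lie at or below 23.5% and 66 of the 70 with most cells TFR above 30%; for a clone of 10 cells, a point at 0 allows a share of up to 30%.

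When sisters were restricted to TFR cells with Foxp3 found and activated cells without, 49 genes stood out in the description of the sister difference, and 30 of these were among the 86. This left 8 to 31 sister clonotypes per mouse, against 33 to 99 before, so the clones changed as well as the cells. Their separate parts in the values were not tested. Tnfsf8 then differed by -0.33, Ikzf2 by 0.27, Cd40lg by -0.16 and Tnfrsf18 by 0.72, each farther in the direction seen between unshared clones than among all sisters. Nfkbid differed by 0.19 and Egr2 by 0.12, less than among all sisters.

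Sisters resembled each other more than they resembled the cells of other clones, by a small margin. The distance between a TFR and an activated sister, as mean absolute log2 difference over the tested genes, was 0.238, and that between a TFR sister and the activated sisters of other clones of the same mouse was 0.241. The own distance was 1.58% smaller, with a mean difference of -0.0038 ± 0.0023 (SD, n = 10 mice) and below 0 in 10 of 10 mice (exact sign-flip permutation p = 0.00195). It did not pass for clones with at least 2 cells on each side (-0.0023, exact permutation p = 0.0781). In WT mice 11, 12, 14, 23 and 36 it was -0.00054, -0.0031, -0.00029, -0.0057 and -0.0036, and in 564Igi mice 13, 17, 21, 24 and 34 it was -0.0031, -0.0074, -0.0057, -0.0050 and -0.0036. The conditions overlapped (exact permutation p = 0.127). Taken over pairs of single cells, so that the number of cells on a side did not enter, the distances were 0.262 and 0.265. Their difference was smaller, at -0.0027, and below 0 in 10 of 10 mice (exact sign-flip permutation p = 0.00195). This choice was made after seeing the data.

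No gene passed when the sister difference was compared between 564Igi and WT chimeras (0 of 9927, 0%; limma), while 500 genes had an unadjusted p under 0.05 and 82 (0.826%) had no overlap between the mice of the conditions. The expression values of each condition were normalized separately by the authors, and a difference within a clone stays within 1 condition. Foxp3 differed between sisters by 0.21 ± 0.12 in WT and 0.21 ± 0.08 in 564Igi chimeras (SD, n = 5 mice each). Cd40lg differed by -0.03 ± 0.15 and 0.14 ± 0.08 (limma adjusted p = 0.88), and Il4, a helper cytokine of TFH cells, by -0.05 ± 0.06 and 0.08 ± 0.07 (limma adjusted p = 0.88). The lowest p belonged to Epc1, a subunit of a chromatin-modifying complex, which differed by 0.12 ± 0.06 in WT and -0.06 ± 0.08 in 564Igi chimeras (limma adjusted p = 0.876). With equal weight for every cell Cd74 passed. With the labelled sex as a covariate no gene passed.

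Markers of other cell types and MHC class II genes were summed in each kind of sister. The summed corrected count per cell of 7 MHC class II genes was 2.54 in TFR sisters (1.13 to 5.12 by mouse) and 0.574 in activated sisters (0.309 to 1.0), and 2.80 and 0.370 in unshared TFR and activated cells. Cd74, the invariant chain of MHC class II, was the member that passed, at 0.28 between sisters and -0.54 between TFR sisters and unshared TFR cells. B cell genes, 8 of 11 in the matrix, summed to 0.195 in TFR sisters (0.145 to 0.3004) and 0.122 in activated sisters (0.0764 to 0.181), with Ms4a1, the gene of CD20, at 0 in both. Myeloid genes, 8 of 9 in the matrix, summed to 0.796 (0.658 to 0.911) and 0.719 (0.466 to 1.53), with S100a9 at 0 in both. Erythroid genes summed to 0.0081 and 0.012, and CD8 and natural killer genes to 0.106 and 0.0709. Their part in the results was not tested.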

How the data were processed

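Reads were mapped by the authors with Cell Ranger 4.0.0 (GRCm38), and cells were filtered and clustered in Seurat 3.1.4, per the labels and the study's methods. The authors left receptor genes out of the matrix and normalized each condition separately with sctransform. The deposited matrix holds the natural log of the corrected count plus 1 for 13798 genes. Corrected counts are not raw counts, so count models were not used. The deposited cell table gives raw UMI and gene counts, percent of mitochondrial and ribosomal UMIs and scores by the authors, and their cluster names. The deposited receptor table gives CDR3, V and J genes per cell. No doublet caller was run.

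Values were converted to log2(corrected count + 1), averaged over cells of a clonotype and side, then over clonotypes of a mouse. Genes found in at least 1% of sister and unshared cells in at least 5 mice were tested with limma 3.58.1 (R 4.3.3, trend) on per-mouse differences, so sides of a mouse were paired by animal, and called at a Benjamini-Hochberg adjusted p under 0.01 and an absolute difference above 0.2. Unshared clones had at least 2 cells. Single values used exact permutation of mice or exact sign flips in Python 3.11.15. The fit was tested on simulated data.

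Named genes were the 10 or 12 largest calls per direction, a set of canonical genes and the leading genes of 14 lists. The members and lists were chosen with earlier results of these data known. Gene positions are from GENCODE vM21, found for 123 of 124 named genes. Depth limits statements to detected UMIs, and free RNA was not removed. Alternatives changed 1 choice at a time, except that the looser call changed the limits on p and size together and the Foxp3 alternative restricted both sides. The beta chain sequence of 1 clone is not reported here.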

Additional observations from a re-analysis of the deposited data

Results flagged for a closer look

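In groups of 5 mice, 98 sets of values were searched for a mouse far from the other 4, by Dixon's criterion, which chance alone meets in about 1 in 20 groups. The search marked 6 values. The share of TFR cells held by sister clones was 44.7% in 564Igi mouse 17 and 21.7% to 28.3% in the other 564Igi mice. The other 5 are gaps between the sister and the unshared difference, on the log2 scale. In 564Igi mouse 24 the gap was -0.37 for Tnfrsf18 (-0.76 to -0.66 in the others), -0.65 for Pdcd1 (0.06 to 0.31) and 0.59 for Lag3 (-0.17 to 0.02). In WT mouse 12 it was -0.082 for Izumo1r (-0.73 to -0.55) and 0.83 for Tcf7 (0.45 to 0.55). Mouse 24 had the smallest library, with 3424280 UMIs, 1121 cells and 33 sister clonotypes, and its part in these values was not tested.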

How the results depend on the processing

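Counts of genes past the threshold depended on several choices. The sister difference gave 86 genes, 47 without the filter, 591 at the looser call (adjusted p of 0.05, without a size limit), 37 with at least 2 cells on each side, 49 with Foxp3-based sides and 61 without the replicate block, that is, with the sides of a mouse unpaired. The gap gave 166, and 1051, 105, 32 and 77 at the looser call, with 2 cells, with equal cells and without the block, and 90 with single unshared cells included. TFR sisters gave 69, and 40 without the filter, 822, 31, 14 and 44 under the same other choices in that order. Activated sisters gave 16, and 4 without the filter, 251 at the looser call, 5 with equal cells, 6 without the block, 27 with no cell in any other cluster and 10 with clones of 2 to 5 cells, a choice made after seeing the data. The comparison of conditions gave 0, and 1 with equal cells. Leaving out 1 mouse gave 80 to 93, 0, 147 to 182, 60 to 72 and 12 to 21 for the sister difference, conditions, the gap, TFR sisters and activated sisters. It moved the condition difference from -1.07 to 0.904 for sister clonotypes per 100, from -3.12 to 3.65 points for TFR cells, from -6.05 to 2.76 points for activated cells and from -7.23 to -4.79 points for the TFR share of a clone. The sign turned for sister clonotypes per 100 without WT mouse 23 or 36 or 564Igi mouse 24 or 34, for TFR cells without WT mouse 11 or 14 or 564Igi mouse 17, and for activated cells without WT mouse 12 or 564Igi mouse 24, and none of these passed in the first place. The distance stayed at -0.0042 to -0.0034, the β length at 0.129 to 0.192 and the α length at 0.0428 to 0.134. The unadjusted p of the β length rose above 0.05 without WT mouse 11, 12, 14 or 23 or 564Igi mouse 13, 24 or 34, and that of the α length fell under it without WT mouse 14 (0.134). Sister clonotypes per 100 differed by 1.30 without mice 34 and 36, chosen after seeing the data, and the share of TFR cells by -1.42 without cells that had signs of an extra chain. With 2 cells on each side the TFR share differed by -8.71 and the distance by -0.0023, and neither passed. Ifi27l2a turned to 0.11 between sisters and -0.024 in activated sisters with equal cells. Of 6888 values of named genes under alternatives, 6591 kept direction and call, 261 lost the call, 34 gained it and 2 reversed. The causes were not tested. Low corrected counts limit what can be said of genes found in few cells.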

Other observations

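None of 16 glycolytic enzymes and none of 6 tested cytotoxic and effector genes passed in any of the comparisons, in which at most 1.67% of all genes passed, so these counts do not set the groups apart. Of 19 tested interferon-stimulated genes, Ifi27l2a was the single one that passed. Of 8 tested inhibitory receptor genes, Ctla4 and Tigit were higher in TFR than in activated sisters. Integrin genes differed in direction within the memory and homing list, since Itgb1 was higher by 0.30 and Itgb7 lower by -0.22 in TFR sisters than in unshared TFR cells (limma, both past the threshold).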
